A study of Rattus norvegicus with 36 samples.

Results

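Leukocyte adhesion molecules bring white blood cells from the blood into tissue, and 7 of their genes, Icam1, Vcam1, Sele, Selp, Selplg, Itgal and Itga4, were followed in the lungs of rats given DQ-12 quartz (crystalline silica). Members were the array probes other than controls whose gene name in the array files was one of these 7, which gave 10 probes of 36146 with a gene name. Each of the 7 genes passed the filter on dim probes, among 23940 tested genes of 25597 gene names. The rule used gene names and no measured value, although the genes were picked with earlier results of these data known.

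Lungs were taken from female Sprague Dawley rats, 13 weeks old at the start, given a single intratracheal dose of 10 mg DQ-12 suspended in saline, or only the saline (vehicle). Other rats were used at each time point, 6 per group at 1 day (D1), 30 days (D30) and 180 days (D180), and each rat's accessory lobe RNA went on 1 single-color Agilent array (36 arrays). No transgene or knockout was involved, and no second dose level was included. The accessory lobe holds all lung cell types together, so more cells of a type and more RNA per cell cannot be told apart in any value given here. Of the markers of alveolar type 2 cells, 7 of 7 were well above background on every array, as were 6 of 6 for alveolar type 1 cells, 8 of 8 for endothelium and 4 of 4 for leukocytes in general. Between 51.3 and 75.5% of probes were well above background on an array. The arrays were scanned on 11 dates and lay on 19 slides. At D1, 6 DQ-12 arrays shared their scan date with 1 vehicle array. At D30, 4 vehicle arrays and 1 DQ-12 array were scanned on a first date, and 2 vehicle and 5 DQ-12 arrays on another. At D180, 3 arrays of each group shared a date. No date held arrays of more than 1 time point, so time point and scan date cannot be told apart in levels compared across days.

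Leukocytes are captured in steps. Selectins on activated endothelium (E-selectin from Sele, P-selectin from Selp) bind sugar-bearing ligands such as PSGL-1 (Selplg) and slow the rolling cell. Integrins on the leukocyte (Itgal encodes the alpha chain of LFA-1, Itga4 that of VLA-4) then bind ICAM-1 (Icam1) and VCAM-1 (Vcam1) and hold the cell firmly. In lung, ICAM-1 is also carried by alveolar type 1 cells, and P-selectin is stored in platelets and endothelium.

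What each probe reads decides what its signal can be called, so the first 30 bases of the probes of Sele, Selp, Icam1, Itga4 and Selplg are shown, the genes that passed a test. Each is a 60-base oligonucleotide with coordinates on the rn4 build, as the array header gives it. Sele had a brighter probe at chr13:79822442-79822501 and a dimmer one at chr13:79819671-79819730.
Sele, brighter probe: aaagtgtcccaacttctgaattaactcgtt
Sele, dimmer probe: acctcacttctgacattgtcctcattgatc
Icam1: aatatggacgctcacctttagcagctcaac
Selplg: acatgtacccagtgcggaactactccccca
Itga4: ttgtgacccactctgtcttagtgctgggga
Icam1 was read at chr8:20051730-20051789, Selplg at chr12:43843376-43843435 and Itga4 at chr3:62097157-62097216. Vcam1 was read at chr2:212277695-212277754. The Itgal probe spans chr1:186594579-186597988, 3410 bases on the genome for 60 bases of probe. The annotation of this build was not used here, so exon and UTR positions are not given. Of the 10 probes, 7 carried an accession that RefSeq lists today under the same symbol, and both bright Selp probes carried an Ensembl transcript instead. The Selplg probe carried a RefSeq accession that had no match in the list of today.

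Selp had 3 probes, of which 2 had the same sequence (chr13:79922082-79922141) and the third lay 4 bases away (chr13:79922078-79922137). The third differed from the pair at 8 of 56 aligned bases, and 6 of these fall in the stretch shown, where capitals mark the bases that differ.
Selp, bright pair: ggAaaggtcctcTtttcgTtattttgTTcT
Selp, dim probe: ggGaaggtcctcCtttcgGtattttgGAcC
The bright pair was well above background on 36 of 36 arrays and its copies correlated at r = 0.98 over 36 arrays. The dim probe was well above background on 2 of 36 arrays and correlated with the bright probe used at r = -0.23. Selp was therefore read from the bright pair, through the copy with the higher mean signal. The dimmer Sele probe was well above background on 5 of 36 arrays and correlated with the brighter one at r = 0.71, against 35 of 36 arrays for the brighter one. The other 5 members had 1 probe each, well above background on 36 of 36 arrays. Values below are log2 of the quantile-normalized signal, and a level of 1 probe is not set against that of another.

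At D180, 4 members were higher after DQ-12 (Sele, Selp, Selplg and Itga4), 1 was lower (Icam1), and Vcam1 and Itgal did not pass. At D30, Itga4 alone passed the test, and at D1 none did. A gene was called higher or lower at an adjusted p under 0.05 in limma (6 group means over all 36 arrays, Benjamini-Hochberg adjustment over all 23940 genes at each time point), and a DEG if the fold change (FC) was also at least 2. At D1, 0 of 7 members passed, beside 16.2% of all genes, and 0 were DEGs, beside 3.07%. At D30, 1 of 7 passed, beside 3.98% of all genes (2.74% higher and 1.24% lower). At D180, 5 of 7 passed, beside 16.8% of all genes, with 4 of 7 higher, beside 7.82%, and 1 of 7 lower, beside 9%. By an unadjusted p under 0.05, limma counted 2 of 7 members at D1 (29% of all genes), 2 at D30 (15.8%) and 5 at D180 (27.9%). The median log2 change of the members was 0.13 at D1, 0.17 at D30 and 0.75 at D180, beside -0.01, -0.015 and -0.032 over all genes.

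**Figure D1:**
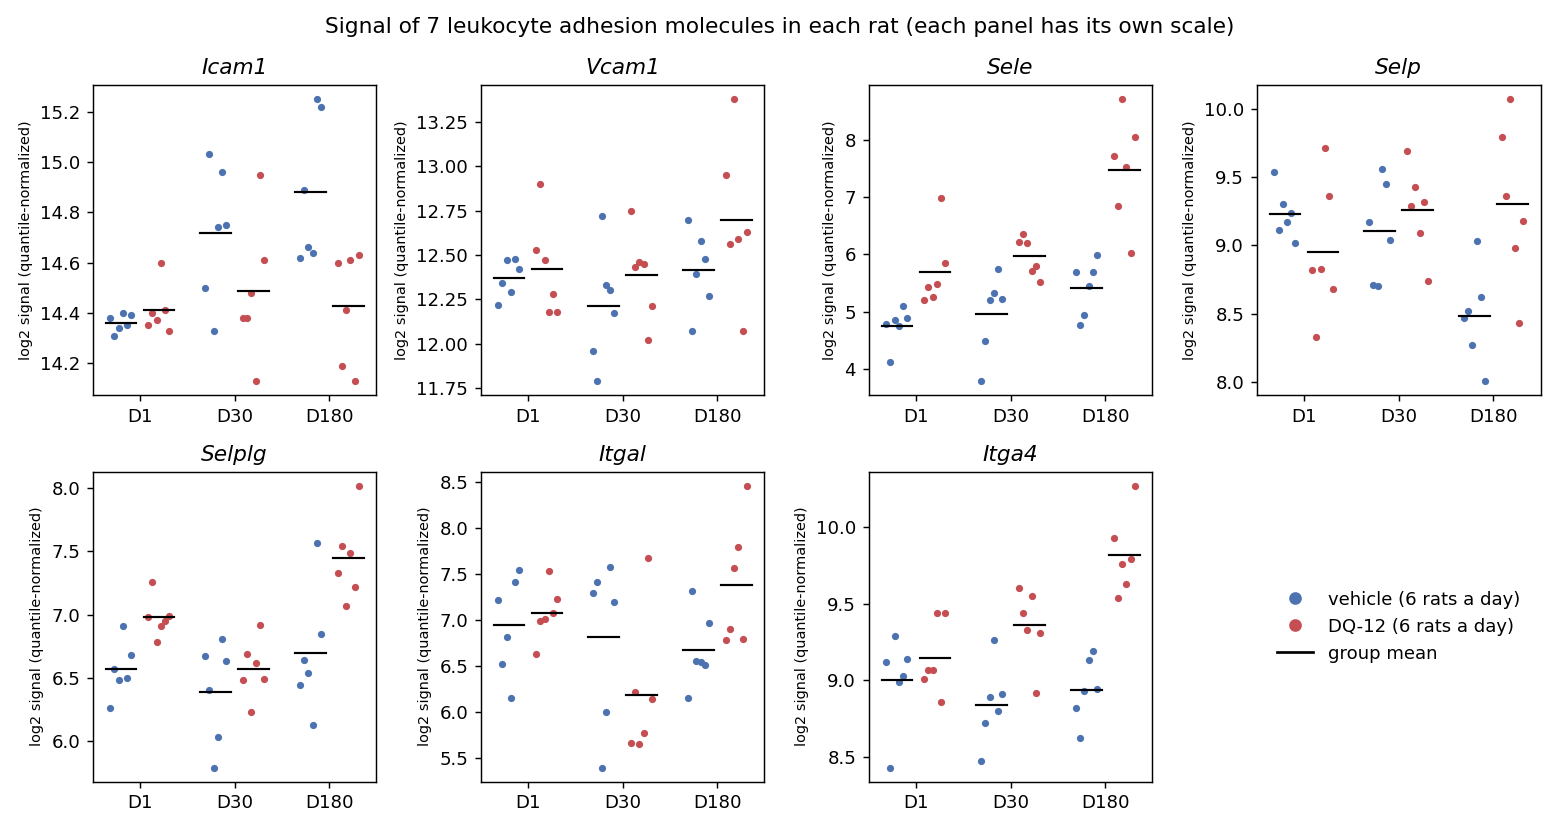
Log2 quantile-normalized signal of each of the 7 genes (vertical axis, own scale per panel) at D1, D30 and D180 (horizontal axis). Points are single rats, blue for vehicle and red for DQ-12 (6 per group), and black lines are group means. At D180 the 6 DQ-12 rats lie above all vehicle rats for Sele and Itga4, and 5 of 6 lie below all vehicle rats for Icam1.

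Sele, the selectin that endothelium makes chiefly when activated, was the only DEG among the 7 members (3.63% of all genes were DEGs at D180), and at D180 alone. At D180 its signal was 4.76 to 5.98 in vehicle rats (median 5.56) and 6.02 to 8.71 in DQ-12 rats (median 7.62). The groups did not overlap, although the lowest DQ-12 rat lay next to the highest vehicle rat. The log2 change was 2.06 ± 0.35 (SE), an FC of 4.17, with an adjusted p of 4.52e-05 in limma. An exact permutation test over the 462 ways to part the 12 arrays gave a 2-sided p of 0.00216, the smallest it can give. Groups did not overlap for 2 of 7 members at D180, against 7.26% of all genes.

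At D1, Sele lay between 4.11 and 5.10 in vehicle rats (median 4.82) and between 5.20 and 6.98 in DQ-12 rats (median 5.45). All 6 DQ-12 rats were again above all vehicle rats, as for 1 of 7 members, beside 11.2% of all genes whose groups did not overlap at D1. The log2 change of 0.95 ± 0.35 (SE), an FC of 1.93, had an adjusted p of 0.0572 and so did not pass. Only 1 vehicle array shared the scan date of the 6 DQ-12 arrays of D1. With scan date as a fixed block the D1 change was 0.85. At D30, the signal was 3.79 to 5.75 in vehicle rats (median 5.21) and 5.51 to 6.36 in DQ-12 rats (median 6.00). Here 4 of 6 DQ-12 rats were above all vehicle rats, and the log2 change of 1.00 ± 0.35 had an adjusted p of 0.104. No member had groups without overlap at D30, where 2.36% of all genes did. The DQ-12 mean lay above the vehicle mean at each time point, while the test of the difference between D1 and D180 did not pass (1.11 ± 0.49, adjusted p = 0.205).

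The size of the Sele change depended on the background correction. With the normexp method, which here added an offset of 50 to each signal, the Sele change was 0.41 at D1 and 0.43 at D30. At D180 it was 1.23 ± 0.20 (adjusted p = 1.89e-05). On the dimmer probe, fitted among all probes, the D180 change was 1.58 ± 0.42 (adjusted p = 0.00822). At D30 the dimmer probe gave a change of -0.0083 ± 0.42. With scan date as a fixed block in limma, the brighter probe changed by 0.83 ± 0.39 at D30 (adjusted p = 0.394) and by 2.11 ± 0.41 at D180 (adjusted p = 0.000712). With slide as a fixed block the D180 change was 2.27 and did not pass (adjusted p = 0.197). Single arrays moved the D1 value. Without DQ-12 replicate 5, which stood at 6.98, the change was 0.69 (adjusted p = 0.174), and without DQ-12 replicate 1 it was 1.05 (adjusted p = 0.048).

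Selp, which encodes the selectin released from stores within minutes, changed at D180. Vehicle rats had 8.01 to 9.03 (median 8.50) and DQ-12 rats 8.43 to 10.07 (median 9.27). In 4 of 6 DQ-12 rats the signal exceeded that of all vehicle rats, and the lowest DQ-12 rat was below the vehicle median. The log2 change was 0.81 ± 0.23 (SE), an FC of 1.76, with an adjusted p of 0.011 in limma. The second copy of the probe gave 0.89 ± 0.24 (adjusted p = 0.011). The Selp call was lost with D180 fitted alone (adjusted p = 0.0711) and with slide as a fixed block (adjusted p = 0.661). Within the scan date that held 3 arrays of each group the difference of means was 1.15, and within the date that held 1 of each it was -0.092.

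At D1, Selp pointed the other way without passing. It was 9.02 to 9.54 in vehicle rats (median 9.21) and 8.33 to 9.71 in DQ-12 rats (median 8.82), with 4 of 6 DQ-12 rats below all vehicle rats. The log2 change was -0.28 ± 0.23 (adjusted p = 0.458). At D30 the groups spread over the same range, 8.70 to 9.56 and 8.74 to 9.69 (medians 9.10 and 9.31), and the change was 0.16 ± 0.23 (adjusted p = 0.856). The change at D180 exceeded that at D1 by 1.09 ± 0.32 on the log2 scale (interaction in limma, adjusted p = 0.0456). Vehicle rats had their lowest Selp mean at D180 (8.49) and their highest at D1 (9.23), a gap that is part of this difference.

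Selplg, the ligand that leukocytes present to the selectins, was also higher at D180. Its signal was 6.13 to 7.57 in vehicle rats (median 6.59) and 7.07 to 8.02 in DQ-12 rats (median 7.41). A single vehicle rat, replicate 5 at 7.57, overlapped with the DQ-12 range, and the other vehicle rats ended at 6.85. The log2 change was 0.75 ± 0.19 (SE), an FC of 1.68 (adjusted p = 0.0039, limma), and 0.93 without that rat. With the normexp method it was 0.48 ± 0.11 (adjusted p = 0.00198), and with D180 fitted alone the Selplg call was lost (adjusted p = 0.0587). The same comparison at D1 gave 6.26 to 6.91 in vehicle rats (median 6.54) and 6.78 to 7.26 in DQ-12 rats (median 6.97). There 5 of 6 DQ-12 rats were above all vehicle rats, with a change of 0.41 ± 0.19 that did not pass (adjusted p = 0.135). At D30, vehicle rats had 5.79 to 6.81 (median 6.51) and DQ-12 rats 6.23 to 6.92 (median 6.55), a change of 0.18 ± 0.19 (adjusted p = 0.744). With scan date as a fixed block the D30 change was 0.48 ± 0.13 (adjusted p = 0.0585).

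Icam1, the ligand of LFA-1, was lower after DQ-12 than after vehicle at D180. Vehicle rats had 14.62 to 15.25 (median 14.78) and DQ-12 rats 14.13 to 14.63 (median 14.50). In 5 of 6 DQ-12 rats the signal was below that of all vehicle rats, and the sixth exceeded only the lowest vehicle rat. The log2 change was -0.45 ± 0.13 (SE), an FC of 1.37 downward, with an adjusted p of 0.013 in limma. Within the date shared by 3 arrays of each group, the difference of means was -0.24, and within that with 1 of each it was -0.77. The Icam1 call was lost with D180 fitted alone (adjusted p = 0.0875) and with slide as a fixed block, where 1 array per group on 1 slide gave a change of -0.039 (adjusted p = 0.997).

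At D1 the Icam1 groups were narrow and overlapped, 14.31 to 14.40 in vehicle rats (median 14.37) and 14.33 to 14.60 in DQ-12 rats (median 14.38). The change was 0.05 ± 0.13 (95% confidence interval -0.22 to 0.31). At D30 they were wider, 14.33 to 15.03 in vehicle rats (median 14.74) and 14.13 to 14.95 in DQ-12 rats (median 14.43), with a change of -0.23 ± 0.13 (adjusted p = 0.421). The difference between the changes at D180 and D1 was -0.50 ± 0.18 (adjusted p = 0.119). It passed in limma with scaling to the 75th percentile (-0.505 ± 0.14, adjusted p = 0.0323) and with the deposited log2 values (-0.505, adjusted p = 0.0326). DQ-12 means were 14.41 at D1, 14.49 at D30 and 14.43 at D180. Vehicle means were 14.36, 14.72 and 14.88, so the difference between the changes at D180 and D1 lay in the vehicle means. These levels come from days that share no scan date. Over the 6 groups, the means of Icam1 were ordered vehicle D1, DQ-12 D1, DQ-12 D180, DQ-12 D30, vehicle D30 and vehicle D180, from 14.36 to 14.88, and each step between neighbours was smaller than the larger of their 2 SDs.

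Markers of the cells that carry these molecules moved at D180 as well. Of 8 endothelial markers, 7 were lower (median log2 change -0.61), and Kdr, the VEGF receptor and the brightest of them, changed by -0.63. The log2 of their summed signal ranged from 16.95 to 17.13 in vehicle rats and from 16.11 to 16.83 in DQ-12 rats. Signals were added before the log2 was taken, so the brightest markers weigh most in this and the other sums given here. Of 6 alveolar type 1 markers, 6 were lower (median -0.48), with sums of 18.52 to 18.79 and 18.04 to 18.31. Icam1 had a correlation of 0.72 with the mean of the endothelial markers over 36 arrays after group means were removed, where all values shared the arrays and their normalization. Scan date was not removed from these values. Vehicle means of Icam1 at D30, for example, were 14.81 on the first date (4 arrays) and 14.54 on the other (2 arrays). The same r was 0.60 with the T cell markers, 0.51 with those of leukocytes in general, 0.48 with those of B cells and 0.41 with those of alveolar type 1 cells. With the endothelial markers, the other members had an r of 0.63 (Itgal), 0.40 (Sele), 0.29 (Selplg), 0.22 (Selp), 0.03 (Itga4) and -0.05 (Vcam1). At D1 none of the 8 endothelial markers passed, with sums of 16.76 to 16.97 and 16.44 to 16.73, and at D30 1 was lower. The part of these cells in the lower Icam1 signal was not tested. Sele rose while these markers of endothelium fell on the same arrays.

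Vcam1, the ligand of VLA-4, passed at no time point. At D180 its signal was 12.07 to 12.70 in vehicle rats (median 12.44) and 12.07 to 13.38 in DQ-12 rats (median 12.61). The change was 0.28 ± 0.17, an FC of 1.22, with a 95% confidence interval of -0.05 to 0.62 that includes no change (adjusted p = 0.276). At D1 the ranges were 12.22 to 12.48 and 12.18 to 12.90 (medians 12.38 and 12.37), and the change 0.05 ± 0.17. At D30 they were 11.79 to 12.72 and 12.02 to 12.75 (medians 12.24 and 12.44), and the change 0.17 ± 0.17. The interval at D1, -0.29 to 0.39, does not reach a log2 change of 1, the threshold of a DEG, and neither does that at D30, -0.17 to 0.51.

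**Figure D2:**
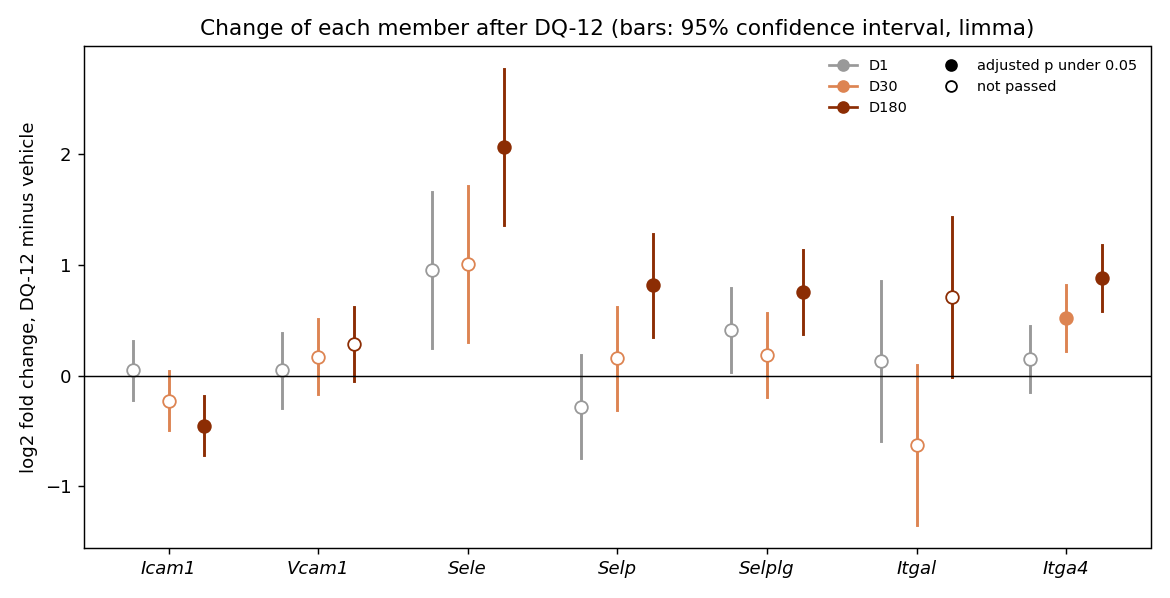
Log2 fold change (DQ-12 minus vehicle, vertical axis) of each of the 7 genes (horizontal axis) at D1 (gray), D30 (orange) and D180 (brown), 6 rats against 6. Bars are 95% confidence intervals from limma, filled circles passed an adjusted p of 0.05 and open ones did not. Filled circles stand at D30 for Itga4 and at D180 for Icam1, Sele, Selp, Selplg and Itga4, with Sele at 2.06 and Icam1 at -0.45.

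Itga4, the alpha chain of VLA-4, was the member called at both later time points. At D180 its signal was 8.62 to 9.19 in vehicle rats (median 8.93) and 9.54 to 10.27 in DQ-12 rats (median 9.78). The groups were apart by more than 0.3 on this scale. The log2 change was 0.88 ± 0.15 (SE), an FC of 1.84, with an adjusted p of 3.71e-05 in limma and an exact permutation p of 0.00216. Within the 2 scan dates that held both groups, the differences of means were 0.78 and 1.17. With slide as a fixed block, the Itga4 change of 0.80 did not pass (adjusted p = 0.13).

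At D30, Itga4 was 8.47 to 9.26 in vehicle rats (median 8.85) and 8.92 to 9.60 in DQ-12 rats (median 9.39). In 5 of 6 DQ-12 rats it exceeded all vehicle rats, and the log2 change was 0.52 ± 0.15 (adjusted p = 0.0383). The call was lost with scan date in the model. On each date every DQ-12 value exceeded the vehicle values of that date. Within the first date the difference of means was 0.19 and within the other 0.37, and with scan date as a fixed block the change was 0.31 ± 0.14 (adjusted p = 0.352). Leaving out 1 array at a time ended the call in 9 of 12 cases (change 0.44 to 0.61, adjusted p 0.00953 to 0.12), and it held without vehicle replicate 3, vehicle replicate 4 or DQ-12 replicate 5. At D1, the ranges were 8.43 to 9.29 and 8.86 to 9.44 (medians 9.07 and 9.07), with a change of 0.15 ± 0.15 (adjusted p = 0.552) that was -0.14 with scan date as a fixed block. The changes at D180 and D1 differed by 0.73 ± 0.21 (interaction in limma, adjusted p = 0.0339). Group means ran from vehicle D30 (8.84), vehicle D180 (8.94) and vehicle D1 to DQ-12 D1 (9.15), DQ-12 D30 (9.36) and DQ-12 D180 (9.82), and of these steps only that from DQ-12 D30 to DQ-12 D180 exceeded the SD of both neighbours.

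Over time, the changes at D180 and D1 differed for 2 of 7 members (Selp and Itga4), against 4.55% of all genes. Between D1 and D30 none of the 7 passed (2.18% of all genes did), with 0 at an unadjusted p under 0.05 in limma (16% of all genes), and between D30 and D180 none did (0.246% of all genes), with 3 at an unadjusted p under 0.05 (Sele, Selplg and Itgal, beside 11.7% of all genes). For Itgal, the changes compared were -0.62 at D30 and 0.71 at D180, and with scan date as a fixed block 0.24 and 0.37. The unadjusted count between D1 and D180 was 4 of 7 members, beside 19.1% of all genes. The count of 2 fell to 0 with scan date as a fixed block, where the differences were 1.19 ± 0.52 for Selp and 1.02 ± 0.26 for Itga4. It ranged from 0 to 2 when single arrays of D1 or D180 were left out, which ended the call in 18 of 24 cases for Selp and in 12 of 24 for Itga4.

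Itgal, the alpha chain of LFA-1, had the widest spread at D30 and passed at no time point. Its signal at D30 was 5.40 to 7.58 in vehicle rats (median 7.25) and 5.66 to 7.68 in DQ-12 rats (median 5.95), for a log2 change of -0.62 ± 0.35 (adjusted p = 0.418). The values lay in 2 separate ranges that followed the scan date. On the first date, 4 vehicle rats had a mean of 7.37 and the DQ-12 rat had 7.68. On the other date, 2 vehicle rats had a mean of 5.70 and 5 DQ-12 rats one of 5.89. Within dates the differences were thus 0.31 and 0.19, and with scan date as a fixed block the change was 0.24 ± 0.20, opposite in sign to the pooled value. At D180, Itgal was 6.16 to 7.32 in vehicle rats (median 6.56) and 6.79 to 8.46 in DQ-12 rats (median 7.24), with a change of 0.71 ± 0.35 (95% confidence interval -0.02 to 1.43, adjusted p = 0.192). At D1 the ranges were 6.16 to 7.55 and 6.63 to 7.53 (medians 7.02 and 7.05) and the change was 0.13 ± 0.35.

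**Figure D3:**
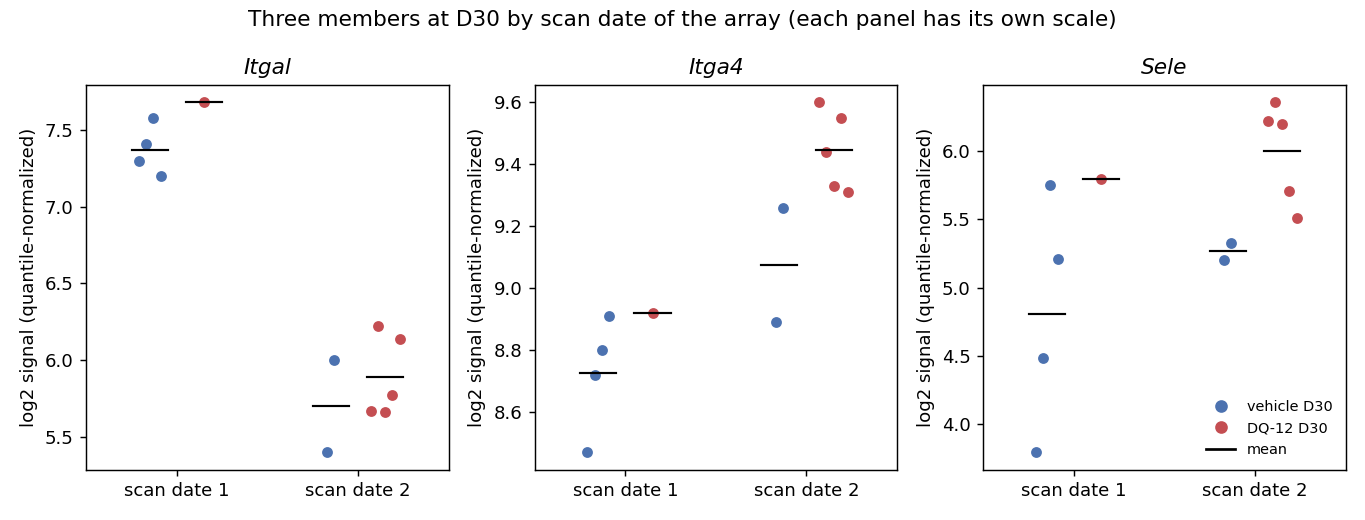
Log2 quantile-normalized signal (vertical axis, own scale per panel) of Itgal, Itga4 and Sele in the 12 rats of D30, by the scan date of the array (horizontal axis). Points are single rats, blue for vehicle and red for DQ-12, and black lines are means. Itgal lies above 7 on the first date and below 6.5 on the other in both groups, while Sele has a higher DQ-12 mean on each date.

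The 2 genes whose signal ran most like that of each member were named by the Pearson correlation over 36 arrays after group means were removed, among 23733 genes without missing values. For Itgal these were Sun2 (r = 0.93) and Eef2 (r = 0.93), and for Icam1 Jup (0.87) and Sh3tc1 (0.87). For Selplg they were Mboat1 (0.78) and Rgs19 (0.77), for Itga4 Bag4 (0.77) and Kcna3 (0.75), and for Vcam1 LOC103695074 (0.77) and Negr1 (0.69). For Sele they were Mapk12 (0.65) and Pirb (0.65), and for Selp Adam12 (0.67) and LOC102553232 (0.67). With group means kept, the r of Sele with Mapk12 was -0.20 and with Pirb 0.71, while Itgal kept 0.84 with Sun2. These arrays also share scan dates, and at D30 the Itgal values followed them. Among the members themselves, the highest such r was that of Icam1 with Itgal (0.60), and Sele and Itga4, which both rose at D180, had 0.35 (0.77 with group means kept).

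The integrin alpha chains act in pairs with beta chains, which were chosen for a closer look after their values were seen. Itgb2, the partner of Itgal, was higher at D180 (log2 change 0.60, adjusted p = 0.00352). Of the partners of Itga4, Itgb7 was higher (0.67, adjusted p = 0.000669) and Itgb1, which many cell types use, was lower (-0.33, adjusted p = 0.000786). Itgb7 was also higher at D1 (0.45, adjusted p = 0.0236 in limma), where Itga4 did not pass. At D30, Itgb7 did not pass (0.30, adjusted p = 0.287 in limma), while Itga4 did. Itgb2 and Itgb1 passed at neither D1 nor D30.

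A further 72 genes of capture, firm adhesion and passage, in 5 lists by role, were all tested. At D1, 8 were higher and 6 lower, which is 14 of 72 beside 16.2% of all genes. At D30, 6 were higher and 2 lower, 8 of 72 beside 3.98% of all genes. At D180, 21 were higher and 16 lower, 37 of 72 beside 16.8% of all genes, and their median log2 change was 0.09. The lists overlap with the endothelial markers in Pecam1 and Cdh5, and call counts at D1 depended on scan date (none of the 72 passed at D1 with scan date as a fixed block, where 1 vehicle array shares the date of the DQ-12 arrays).

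Among the selectins, their ligands and the enzymes that build the sugars on them (16 genes), 2 were higher at D1, 1 at D30, and 4 were higher and 3 lower at D180. Fut7, the fucosyltransferase that completes selectin ligands on leukocytes, had the largest rise at D180 (0.87 ± 0.21, adjusted p = 0.00233). Cd34, a sialomucin of endothelium and progenitor cells, had the largest fall (-0.79 ± 0.26, adjusted p = 0.0362). Its signal was low, well above background on 4 of 6 DQ-12 arrays, and 3 of 6 DQ-12 rats were below all vehicle rats. At D1 the largest rise was that of B4galt1, a galactosyltransferase (0.44), and at D30 that of Cd44, the hyaluronan receptor (0.37).

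Among the integrin subunits of leukocytes (13 genes), Itgam, the alpha chain of Mac-1 on neutrophils and macrophages, had the largest rise at each time point. Its log2 change was 0.96 ± 0.27 at D1 (adjusted p = 0.0125), 0.98 ± 0.27 at D30 (adjusted p = 0.0323) and 2.19 ± 0.27 at D180 (adjusted p = 3.2e-07), with 6 of 6 DQ-12 rats above all vehicle rats at D30 and D180. Mac-1 also binds ICAM-1. Itga9 had the largest fall among the genes called at D30 (-0.34) and D180 (-0.54), while Itgb3, which did not pass, had -0.34 and -0.58. At D180, 4 of the 13 were higher and 2 lower.

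None of the 16 other endothelial and junctional adhesion molecules was higher at D180, and 7 were lower. Jam2, a junctional molecule that binds VLA-4, had the largest fall (-0.69 ± 0.13, adjusted p = 0.000177). At D1, Cd99 was higher (0.26) and the largest fall was that of Aoc3, an amine oxidase of vascular cells (-0.47), and at D30 F11r was lower (-0.48). These falls stand beside the lower endothelial markers at D180, and whether they share a source was not tested.

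Integrin activation (11 genes) had 5 genes higher and 1 lower at D180. Fermt3, kindlin-3 of blood cells, which switches integrins to their binding state, rose at every time point, by 0.52 at D1, 0.39 at D30 and 0.97 ± 0.11 at D180 (adjusted p = 1.6e-07). Among the genes called, the largest fall at D1 was that of Apbb1ip (-0.42), and the gene lower at D180 was Rap1a (-0.41).

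Signals that activate or quiet endothelium (16 genes) had 8 genes higher and 3 lower at D180, with 3 DEGs. The lower genes were Klf2, Klf4 and Nos3. Tnf, a cytokine that induces Sele, Icam1 and Vcam1 in endothelial culture, was higher by 1.34 ± 0.19 at D30 (adjusted p = 2.81e-05) and by 1.31 ± 0.19 at D180 (adjusted p = 7.03e-06). At D1, Tnf had 0.51 and did not pass (adjusted p = 0.0663). Among the genes called at D1, Nfkb2, a subunit of NF-kappaB, had the largest rise (0.51) and Klf4, a factor that quiets endothelium, the largest fall (-0.62). Klf2, its relative, had the largest fall among those called at D180 (-0.68 ± 0.20, adjusted p = 0.0166).

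**Figure D4:**
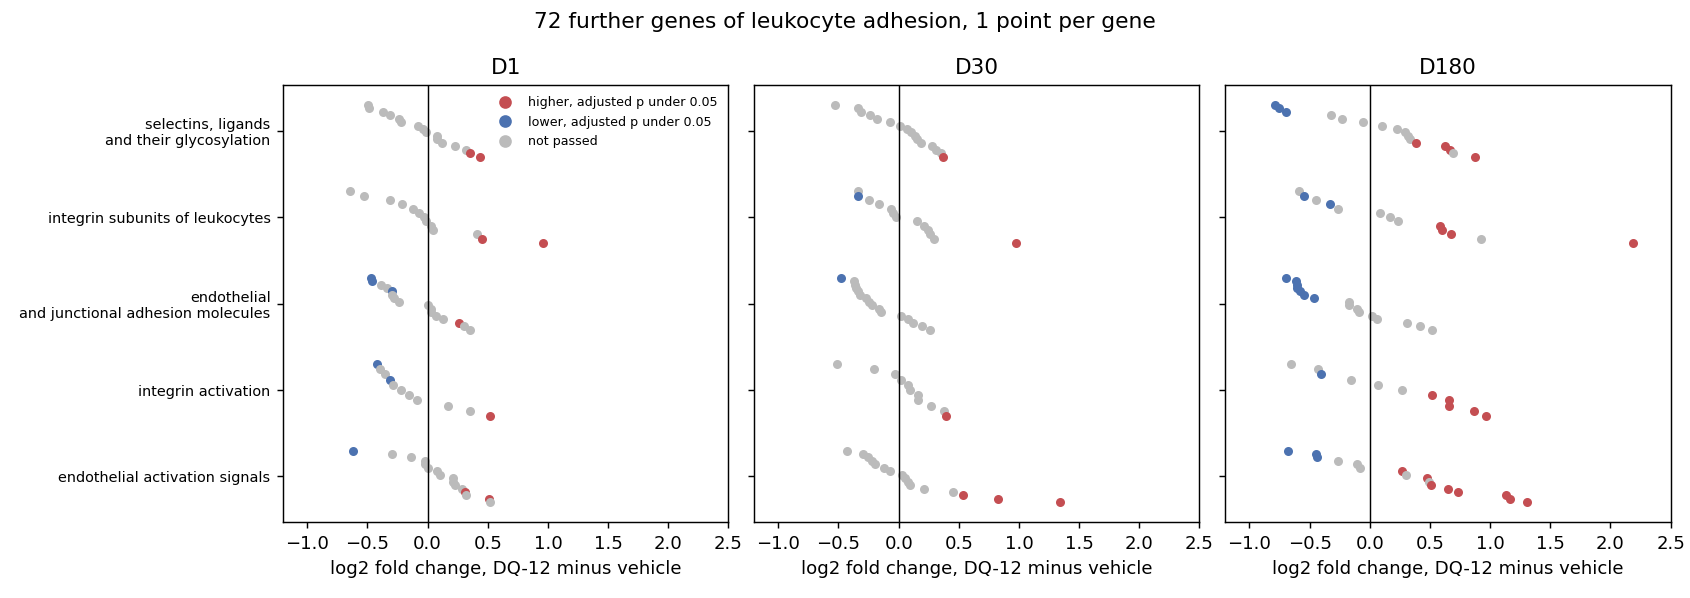
Log2 fold change (DQ-12 minus vehicle, horizontal axis) of 72 further adhesion genes in 5 lists (vertical axis, genes sorted within each list) at D1, D30 and D180. Each point is a gene, red where higher and blue where lower at an adjusted p under 0.05 in limma, and gray where not passed. At D180, 21 points are red and 16 blue, and the red point farthest to the right is Itgam at 2.19.

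Neutrophil and macrophage markers were higher at D180, when Selplg and Itga4 were higher and Itgal did not pass. Of 6 neutrophil markers 5 were higher (median log2 change 1.53), and the brightest, S100a9, changed by 2.57. Of 7 macrophage markers 4 were higher (median 0.61), and of 4 markers of leukocytes in general 2 were (median 0.29). The log2 of the summed neutrophil signal was 13.05 to 13.97 in vehicle rats and 15.53 to 16.05 in DQ-12 rats at D180. The macrophage sums were 13.61 to 14.01 and 14.50 to 15.11. At D30, when Itga4 passed and Selplg and Itgal did not, the neutrophil sums were 12.91 to 14.07 and 14.44 to 15.93. The macrophage sums at D30 were 13.32 to 13.56 and 14.13 to 14.67. Of 8 T cell markers, 1 was higher at D180, as were 0 of 6 B cell and 0 of 4 NK cell markers. Of 6 platelet markers, which bear on Selp, 1 was lower and none higher, with sums of 11.59 to 12.41 and 11.61 to 12.48, and 3 of the 6 were well above background on every array. With group means removed, the r over 36 arrays with the mean of the neutrophil markers was 0.17 for Selplg and 0.12 for Itga4. It was 0.37 and 0.25 with the macrophage markers, and 0.45 and 0.44 with the T cell markers. With the markers of leukocytes in general it was 0.34 and 0.49. The part of these cells in the changes of Selplg, Itga4 and Selp was not tested.

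Because Sele, Icam1 and Vcam1 are known targets of NF-kappaB, the promoter windows that RefSeq gives for the members on GRCr8 were searched, from 250 bases before the start to 50 after it. Windows were given for Icam1, Vcam1, Sele and Itga4 (4 of 7), and not for Selp, Selplg and Itgal. The letters GGNNNTTCC, a kappa B-like pattern, were sought on both strands and occur in 18.3% of 33469 windows, and TGANTCA, the AP-1 pattern, in 7.33%. Icam1 held 2 kappa B-like matches and Vcam1 2, with the match nearest to the consensus of each shown in capitals.
Icam1, chr8:27829617-27829645, plus strand, match 218 bases before the start: acttcagtttGGAAATTCCtgggtcgcag
Vcam1, chr2:206742858-206742886, minus strand, match 93 bases before the start: tccccttgaaGGGATTTCCctccgcctct
Sele and Itga4 held 0 kappa B-like matches in these windows, and none of the 4 windows held an AP-1 match, which says only that these letters are not there. Of the 2 genes with a match, Icam1 was lower at D180 and Vcam1 did not pass.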

How the data were processed

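The accessory lobe of 36 rats was measured on 1 single-color array each. The authors' files, deposited per array, were made with Agilent Feature Extraction 12.0.1.1 and hold intensities before and after background correction. The deposited log2 table equals the log2 of the corrected intensity minus the 75th percentile of each array, centered on each probe (median absolute difference 0.00177).

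The corrected intensity was put on the log2 scale here, outlier spots were left out, and spots of a probe were averaged. Probes above the 95th percentile of 308 negative controls on at least 6 arrays were kept and quantile normalized, and a gene was read from its probe with the highest mean (23940 genes). limma 3.58.1 (R 4.3.3) fitted 6 group means to all 36 arrays, with 2-sided tests. The script was tested on simulated data. For single members, exact permutation p-values over the arrays of a day were added. The study's methods state that batch was corrected for but do not name the variable, so no batch term entered the model here and the fit differs from theirs in this. Alternatives changed background correction, scaling, filter, probe rule, samples, blocks (scan date, slide, replicate number), threshold and arrays.

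The members and gene lists were chosen with earlier results of these data known. Genes named beside the members were, per list and day, the called gene with the largest rise and fall, the 2 genes most like each member, and the brightest marker of a list. Replicates were separate rats. The number of arrays limits the precision.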

Additional observations from a re-analysis of the deposited data

Results flagged for a closer look

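In 5 of 42 sets of 6 rats, a single rat stood far from the others (chance gives about 1 in 20). These were Icam1 in DQ-12 D1 replicate 4 (14.60, next 14.41), Sele in DQ-12 D1 replicate 5 (6.98, next 5.85) and in vehicle D1 replicate 2 (4.11, next 4.74), Itga4 in vehicle D1 replicate 2 (8.43, next 8.99) and Itgal in DQ-12 D30 replicate 5 (7.68, next 6.22). The last was the DQ-12 rat of D30 scanned with the first group of vehicle arrays. The same vehicle rat of D1 was the low one for both Sele and Itga4.

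The effect of DQ-12 differed between D180 and D1 by the test of the difference itself for Selp (1.09 on the log2 scale) and Itga4 (0.73). Both calls depended on scan date and on single arrays. Leaving out 1 array ended the call in 18 of 24 cases for Selp and in 12 of 24 for Itga4.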

How the results depend on the processing

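The 5 calls at D180 numbered 5 under every alternative but 2, and under each array left out (5 to 5, with 1 DEG). They were 2 with each time point fitted alone, where Icam1, Selp and Selplg had adjusted p of 0.0875, 0.0711 and 0.0587, and 1 with slide as a fixed block, where 1 slide with 1 array per group gives the values (Icam1 -0.0392, Sele 2.27, Selp 0.766, Itga4 0.80). A fold of 1.5 gave 4 DEGs at D180. At D1, 1 member passed with the filter on probes well above background (Sele) and 2 with the time point alone (Sele, Selplg), and leaving out arrays gave 0 to 1 calls and 0 to 1 DEGs. At D30, 0 passed with the time point alone, with scan date or slide as a fixed block or as a random block, and leaving out arrays gave 0 to 1 calls and 0 to 0 DEGs. The members whose change differed between D1 and D180 were 0 with scan date or slide as a fixed block and 1 with either as a random block, 0 to 2 without single arrays. The ranges were 0 to 0 for the other pairs of days. With 75th percentile scaling and with the deposited log2 values, Icam1 passed between D1 and D180 beside Selp and Itga4 (adjusted p = 0.0323 and 0.0326 for Icam1 in limma). Adhesion pathway genes at D1 (14) were 0 with scan date or slide as a fixed block, 5 with scan date and 9 with slide as a random block, and 9 to 16 without single arrays. At D30 (8) they were 4 with the median of probes, 3 with the time point alone, 4 with scan date or slide as a fixed block, 4 with scan date and 5 with slide as a random block, and 2 to 12 without single arrays. At D180 (37) they were 23 with the time point alone, 4 with slide as a fixed block, and 31 to 39 without single arrays. Signs reversed with scan date as a fixed block for Vcam1 at D1 (-0.0487) and D30 (-0.058), Itga4 at D1 (-0.141) and Itgal at D30 (0.236), with slide as a fixed block for Itga4 at D1 (-0.287), Vcam1 at D30 (-0.0622) and Itgal at D30 (0.206), with the dim Selp probe at D1 (0.0372) and D30 (-0.0432), and with the dimmer Sele probe at D30 (-0.0083). Without single arrays Vcam1 at D1 ran from -0.0463 to 0.0976 and Itgal at D1 from -0.0269 to 0.252. The causes of these changes were not tested. The replicate block left 5 calls at D180, 1 at D30 and 0 at D1. Same-numbered rats of the groups deviated together in some pairs and apart in others (r -0.13 to 0.22), so the numbers do not pair the rats. Sele, not well above background on 1 array, was the member nearest to background.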
